A study of Mus musculus with 17 samples.

Results

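Brain endothelial nuclei were examined in the posterior brain of 17 female mice aged 2.3 months, all homozygous for a knock-in of the human transferrin receptor (TfR). Each mouse was dosed into a vein 4 times, once a week. The groups received saline (n = 4), the unconjugated antisense oligonucleotide against the nuclear RNA Malat1 (Malat1 ASO, 2 mg/kg, n = 4), that target's oligonucleotide on an antibody to TfR (anti-TfR:Malat1, labelled TfR-Malat1, 50 mg/kg, n = 6) or on an engineered TfR-binding oligonucleotide transport vehicle (OTV:Malat1, 50 mg/kg, n = 3). The series describes the 2 mg/kg of unconjugated oligonucleotide as the amount the conjugates carry. The labels record a duration of 24 days and a harvest 72 hours from the final dose. The saline animals carried the knock-in too, so no group had only the mouse receptor. Nuclei were chosen among those with the deposited label of vascular cells by raw counts of unique molecular identifiers (UMIs) of 6 endothelial genes (Flt1, Cldn5, Mecom, Adgrl4, Ptprb and Slco1a4). The endothelial sum had to be 2 or more and larger than the sum of 6 mural genes and of 6 fibroblast genes. The rule kept 183 of 1226 vascular-labelled nuclei and of 284074 nuclei in all. The other vascular-labelled nuclei used for comparison were 380 mural and 545 fibroblast-like nuclei, chosen in the same way from the other lists.

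Brain endothelial cells line every vessel of the brain and form the blood-brain barrier through tight junctions, a low rate of vesicle traffic and selective transporters. They carry the transferrin receptor on the side that faces the blood, where it takes up iron-loaded transferrin, and antibodies or engineered proteins that bind it are used to carry cargo into and across these cells. Malat1 is an abundant long noncoding RNA held in the nucleus, which an RNase H-recruiting antisense oligonucleotide can cleave there. 

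The values that chose the nuclei are given as a description. The endothelial marker sum ran from 4 to 171 UMIs with a median of 21. The 10 nuclei with the lowest sums held 4 to 7 such UMIs, while 36 vascular-labelled nuclei with a sum of 2 or more stayed outside because another list tied with it or led. Of the 183 nuclei, 93 held no mural marker UMI and 177 no fibroblast marker UMI, and 177 lay in the same deposited cluster, number 14. That cluster held 7405 nuclei, of which 1203 carried the vascular label. Flt1, a receptor for vascular endothelial growth factor, was counted in 182 nuclei (99.5%), and Cldn5, the main claudin of brain endothelial tight junctions, in 117 (63.9%). Mecom, a transcription factor of endothelial and blood-forming cells, was counted in 144 (78.7%).

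The depth of these nuclei was low. They held 297233 UMIs in all, with a median of 1091 UMIs and 810 genes per nucleus, against 3307 UMIs and 1746 genes over all nuclei. Between 3 and 20 endothelial nuclei came from each animal. The anti-TfR:Malat1 animal numbered 4 had 3. It was kept for the share of nuclei and left out of the other tests, which leaves 5 animals in that group there. In the 16 animals used, the summed depth was 3973 to 32696 UMIs. Among the 183 nuclei, 16 (8.74%) carried the authors' doublet call and were kept. Across the whole matrix 10044 barcodes occurred in 2 or more libraries. The barcode of 11 endothelial nuclei also occurred in another library, and no 2 endothelial nuclei shared one.

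The genes that the rule did not use matched the endothelial label. All 30 genes of an endothelial list outside the rule were detected, with a summed level of 23621 CPM (UMIs of a gene divided by all UMIs, scaled by 1e+06) in endothelial, 3323 in mural and 904 in fibroblast-like nuclei. These sums describe the classes and are no test, since the nuclei were chosen on genes that travel with them. Pecam1, an adhesion molecule between endothelial cells, was at 619 CPM in endothelial and 7.66 CPM in mural nuclei over all animals. Tek, the angiopoietin receptor, was at 632 and 23.0 CPM, and Egfl7, a secreted endothelial protein, at 636 CPM in endothelial nuclei. Bsg, a surface glycoprotein and chaperone of monocarboxylate transporters, was the gene of that list with the most UMIs, 2079, found in 163 nuclei.

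Saline endothelial nuclei were also set against the other vascular nuclei of saline animals, and the 20 genes of 300 CPM or more with the largest ratios are given as a description. Mecom, Adgrl4, Ptprb, Cldn5 and Slco1a4 were among them, but the rule used these genes, so their ratios restate the choice of nuclei. The genes outside the rule, in no order since several ratios rest on few or no UMIs in the other nuclei, were Pglyrp1, Egfl7, Ctla2a, Ly6c1, Fgd5, Ly6a, Slco1c1, Prkch, Hba-a1, Cyyr1, Pecam1, Hbb-bs, Chn2, Nostrin and Itga6. Pglyrp1, which encodes a peptidoglycan recognition protein, was at 820 CPM, with 1 UMI in the other vascular nuclei. Ly6c1 and Ly6a, surface proteins of mouse endothelium, were 187-fold and 142-fold higher. Pecam1 and Cyyr1 had no UMI in the other vascular nuclei and were at least 80.1-fold and at least 105-fold higher, computed against a floor of 3 UMIs over the group. Hba-a1 and Hbb-bs are haemoglobin genes of red blood cells. Haemoglobin genes gave 817 UMIs in 14 endothelial nuclei, and 3 nuclei held 87.4% of them. In OTV:Malat1 replicate 2 a single nucleus held 430 such UMIs, 2.30% of that animal's endothelial UMIs.

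Transport genes of the barrier stood out in these nuclei. All 26 listed transporters were detected and their summed level was 13047 CPM in endothelial, 934 in mural and 1301 in fibroblast-like nuclei. Slco1c1, which carries thyroid hormone, was at 1655 CPM in endothelial and 40.8 CPM in mural nuclei. Slc2a1, the glucose transporter of the barrier, was at 1278 and 66.4 CPM. Abcg2 and Abcb1a, efflux pumps that return drugs to the blood, were at 1329 and 996 CPM in endothelial nuclei. Lef1, a transcription factor of the Wnt pathway that maintains the barrier, was at 1379 CPM in endothelial and 128 CPM in mural nuclei. Tjp1, a tight junction scaffold, was less restricted, at 1847 CPM in endothelial, 579 in mural and 441 in neuron-labelled nuclei.

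**Figure D1:**
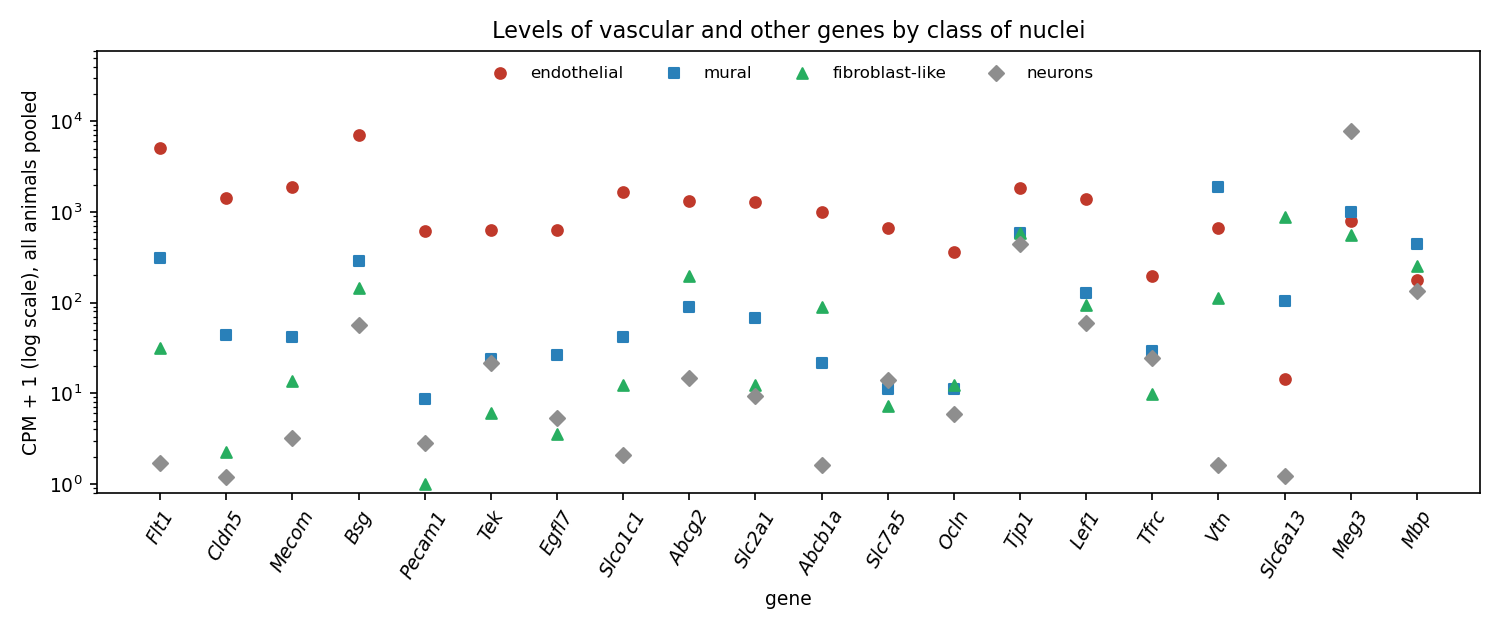
Level of 20 genes as CPM + 1 (vertical log scale), with UMIs of all animals pooled, in endothelial, mural, fibroblast-like and neuron-labelled nuclei; the genes along the horizontal axis were chosen for illustration. Flt1 (5026 CPM) and Slco1c1 (1655 CPM) are high in endothelial nuclei, while Slc6a13, a fibroblast marker used by the rule, and Meg3, a neuronal RNA, are highest in other classes.

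Markers of other cells were found in these nuclei, and in 2 OTV:Malat1 animals one such list exceeded the 6 endothelial genes of the rule. In OTV:Malat1 replicate 3 the neuronal markers summed to 15921 CPM, against 8651 CPM of the 6 endothelial genes of the rule and 14449 CPM of the 30 endothelial genes outside it. In OTV:Malat1 replicate 2 the red blood cell genes summed to 23023 CPM, against 15367 CPM of the 6 endothelial genes of the rule. Their part in the results was not tested beyond leaving out each animal and the nuclei with haemoglobin UMIs; without those nuclei endothelial Malat1 differed from saline on the log2 scale by -1.14 for anti-TfR:Malat1 and by -1.04 for OTV:Malat1. The 8 neuronal markers summed to 3660 CPM over all endothelial nuclei, with a mean of 2230 CPM (range 1411 to 3854) in saline, 4742 CPM (3173 to 8623) in Malat1 ASO, 3309 CPM (827 to 7615) in anti-TfR:Malat1 and 6148 CPM (1178 to 15921) in OTV:Malat1. Of these markers, Meg3 and Snap25 were at 794 and 239 CPM, while Rbfox3 and Grin1 had 0 to 7 and 0 to 5 UMIs per animal. The 8 oligodendrocyte markers summed to 184 to 3922 CPM over the animals, highest in OTV:Malat1 replicate 1, with 390 to 2895 CPM in saline. The 8 astrocyte markers summed to 397 to 3221 CPM in the animals tested, highest in OTV:Malat1 replicate 3, with 857 to 1786 CPM in saline. Markers of oligodendrocyte precursors were at 1449 and 1890 CPM in anti-TfR:Malat1 replicates 3 and 6 and at 0 to 276 CPM in every other animal. The 8 microglial markers summed to 205 CPM, and Csf1r, the growth factor receptor that defines microglia, had no UMI. The 6 markers of perivascular macrophages summed to 70.7 CPM (0 to 252 CPM over the animals), from 20 UMIs of Rbpj and 1 of Pf4, while Mrc1, Cd163, F13a1 and Lyve1 had no UMI. No UMI was counted either of the fibroblast genes Dcn, Col1a1 and Ranbp3l used by the rule. The 6 mural genes used by the rule summed to 2194 CPM, and 268 of those 652 UMIs were Rgs5.

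Endothelial nuclei made up a small part of each library. The share of all nuclei was 0.0935% ± 0.0293 (SD, n = 4) in saline, 0.0544% ± 0.0236 (n = 4) in Malat1 ASO, 0.0553% ± 0.0256 (n = 6) in anti-TfR:Malat1 and 0.0566% ± 0.0238 (n = 3) in OTV:Malat1. The 4 saline animals yielded 11, 11, 20 and 19 endothelial nuclei, and the 3 OTV:Malat1 animals 11, 14 and 5. The treated means were lower than the saline mean, but the ranges of every treated group overlapped that of saline. In exact two-sided permutation tests of each treated group against saline, p was 0.143 for Malat1 ASO, 0.0762 for anti-TfR:Malat1 and 0.229 for OTV:Malat1, with Benjamini-Hochberg adjusted values of 0.429 to 0.457 over 6 pairs of groups.

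The main question was how far each test article lowered its target in endothelial nuclei. Malat1 (ENSMUSG00000092341.3 in GENCODE M21, build GRCm38) is a long intergenic noncoding RNA on the minus strand of chromosome 19, from 5795690 to 5802672. It was not used to choose the nuclei, and its share of the summed endothelial UMIs was measured for each animal. In saline the shares were 6.77%, 8.08%, 7.78% and 5.94%. With Malat1 ASO they were 5.08%, 4.36%, 6.48% and 4.00%, and 3 of the 4 animals lay below every saline animal. With anti-TfR:Malat1 the 5 animals had 4.35%, 2.83%, 4.65%, 2.46% and 2.86%, all below every saline animal. With OTV:Malat1 the shares were 3.10%, 4.50% and 2.81%, again all below saline. The value of OTV:Malat1 replicate 3 rests largely on 1 nucleus, with 7184 of its 10866 endothelial UMIs and 240 of its 305 Malat1 UMIs. The animal left out, with 3 nuclei, had 2.39%. The 95% Wilson intervals, which cover counting error only, ran from 5.69% to 6.20% for the lowest saline animal and from 4.41% to 4.89% for the highest anti-TfR:Malat1 animal.

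The mean over animals was 7.14% ± 0.976 (SD, n = 4) in saline, 4.98% ± 1.10 (n = 4) in Malat1 ASO, 3.43% ± 0.995 (n = 5) in anti-TfR:Malat1 and 3.47% ± 0.904 (n = 3) in OTV:Malat1. On the log2(CPM + 1) scale the difference from saline was -1.10 for anti-TfR:Malat1, or 0.468 of the saline level, with a 95% interval of -1.58 to -0.50 from the exact permutation test. Its p of 0.0159 is the smallest that 5 animals against 4 allow, and it was 0.0952 after Benjamini-Hochberg adjustment over the 6 pairs, above the threshold of 0.05. The difference for OTV:Malat1 was -1.06 (exact permutation p = 0.0571, the smallest possible with 3 against 4, adjusted 0.114), a design that cannot pass 0.05. For Malat1 ASO it was -0.53 (95% interval -1.01 to 0.12, exact permutation p = 0.0571, adjusted 0.114). No pair of groups passed the adjusted threshold with the summed UMIs. Where each nucleus counted equally within its animal, anti-TfR:Malat1 passed against saline and against Malat1 ASO, with differences of -1.07 and -0.55 and an adjusted exact permutation p of 0.0476 for both.

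**Figure D2:**
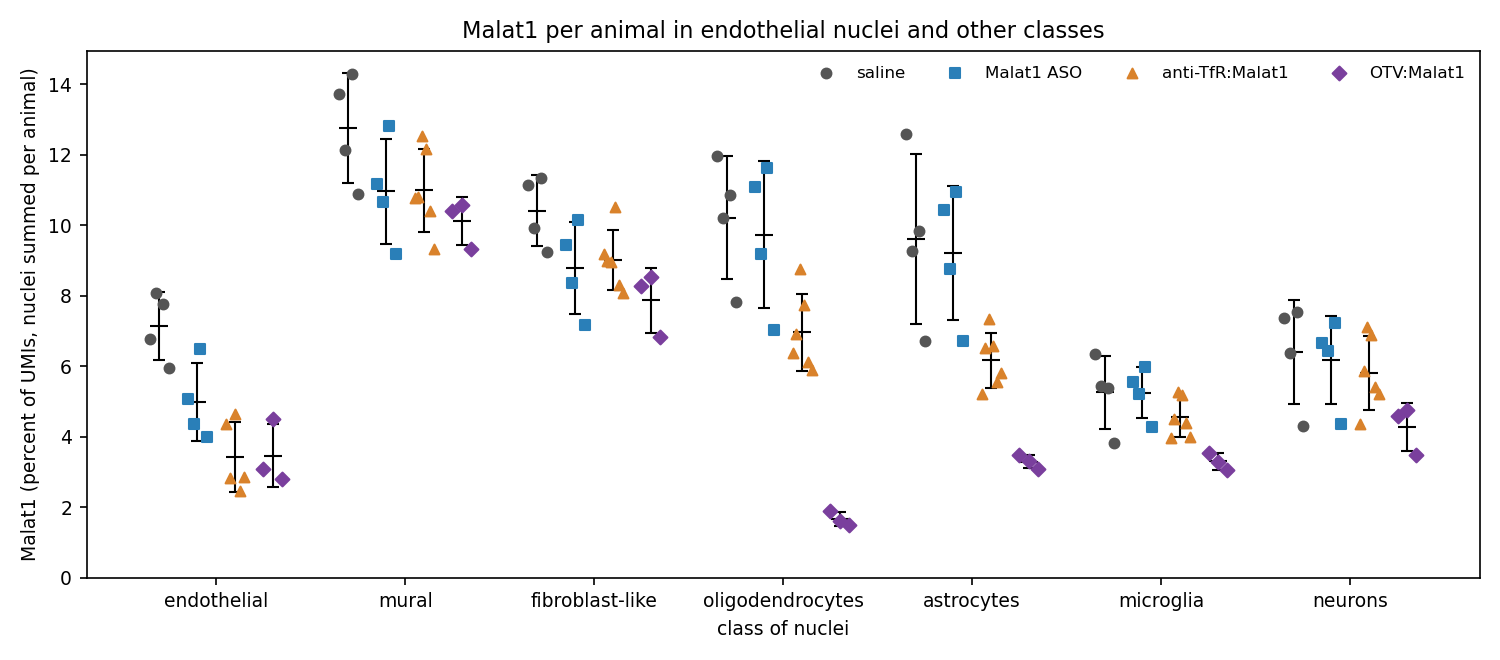
Malat1 as a percent of UMIs (vertical axis) with the nuclei of each class summed per animal; points are animals, and black marks are the group mean with SD. In endothelial nuclei both conjugate groups lie below all 4 saline animals, and the 3 OTV:Malat1 animals are lowest in oligodendrocytes, at 1.497% to 1.90%.

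The conjugates were not separated from each other in endothelial nuclei. OTV:Malat1 minus anti-TfR:Malat1 was 0.03 on the log2 scale (exact permutation p = 0.786), with a 95% interval of -0.72 to 0.86, so that a level from 60.7% to 182% of anti-TfR:Malat1 was within the interval. Its sign turned to -0.16 where each nucleus counted equally. Against the free oligonucleotide, anti-TfR:Malat1 was lower by a log2 difference of -0.56 (95% interval -1.18 to 0.10, exact permutation p = 0.0794, adjusted 0.119). OTV:Malat1 differed from it by -0.53 (exact permutation p = 0.171, adjusted 0.206). Over all alternatives run with the permutation test the OTV:Malat1 difference ran from -0.73 to -0.26, and that of anti-TfR:Malat1 from -0.68 to -0.43. In the edgeR fit over all genes, described below, both ranges crossed 0. They ran from -0.92 to 0.0795 for OTV:Malat1 and from -1.27 to 0.0124 for anti-TfR:Malat1. Of the 5 anti-TfR:Malat1 animals 3 lay below every Malat1 ASO animal, and of the 3 OTV:Malat1 animals 2 did.

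The deposited metadata name 4 batches, each with 1 saline animal and 1 Malat1 ASO animal; OTV:Malat1 had no animal in batch 1. Within batches 1 to 4, anti-TfR:Malat1 lay below saline by log2 differences of -0.64, -1.52, -0.74 and -1.16. OTV:Malat1 lay below saline by -1.38, -0.79 and -1.08 in batches 2 to 4. Malat1 ASO lay below saline in all 4 batches, by -0.41, -0.89, -0.26 and -0.57. Each batch held 1 or 2 animals of a group, and the exact permutation within batches could give no p below 0.0833 for anti-TfR:Malat1 against saline (n = 5 and 4), the value it gave.

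Low Malat1 in the conjugate groups was uneven from nucleus to nucleus. Each nucleus was thinned at random to 500 UMIs so that nuclei of different depth could be compared. The 61 saline nuclei then held 17 to 59 Malat1 UMIs, with a median of 36. The 36 Malat1 ASO nuclei ranged from 5 to 52 (median 24), the 53 anti-TfR:Malat1 nuclei from 0 to 61 (median 11) and the 30 OTV:Malat1 nuclei from 3 to 37 (median 13). Nuclei below the lowest saline nucleus numbered 8 of 36 (22.2%) in Malat1 ASO, 32 of 53 (60.4%) in anti-TfR:Malat1 and 17 of 30 (56.7%) in OTV:Malat1. At the same time 13 anti-TfR:Malat1 nuclei and 5 OTV:Malat1 nuclei still reached the 25th percentile of saline nuclei, 30 UMIs, which 10 Malat1 ASO nuclei also did. Free RNA can add Malat1 UMIs to any droplet, and its part was not measured. Before thinning every nucleus held Malat1, and its lowest share of a nucleus's UMIs was 3.42% in saline, against 0.305% for anti-TfR:Malat1 and 0.749% for OTV:Malat1. Low values occurred in shallow and in deep nuclei. In anti-TfR:Malat1 the median was 11.5 both under and over 1000 UMIs per nucleus (the 3 nuclei of the animal left out included), and in OTV:Malat1 it was 18 under and 12 over, against 37.5 and 34 in saline.

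Low nuclei were found in each treated animal. Between 50.0% and 77.8% of the nuclei of each of the 5 anti-TfR:Malat1 animals tested, and between 35.7% and 80.0% of those of each OTV:Malat1 animal, lay below every saline nucleus. In the Malat1 ASO animals the range was 16.7% to 33.3%. The share of nuclei under the saline median of 36 UMIs was 48.7% ± 23.5 (SD, n = 4) in saline, 80.4% ± 17.1 (n = 4) in Malat1 ASO, 89.3% ± 10.7 (n = 5) in anti-TfR:Malat1 and 94.6% ± 4.79 (n = 3) in OTV:Malat1. Exact two-sided permutation tests against saline gave p = 0.0571, 0.0317 and 0.0571 in that order, and 0.114 for each after adjustment over the 6 pairs. The cut came from the saline nuclei and stayed fixed in the permutations, so these p-values are approximate. They also rest on the same nuclei and Malat1 UMIs as the tests of the summed UMIs. The saline animals were themselves uneven, with medians from 26 UMIs in replicate 4 to 39.5 in replicate 3.

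**Figure D3:**
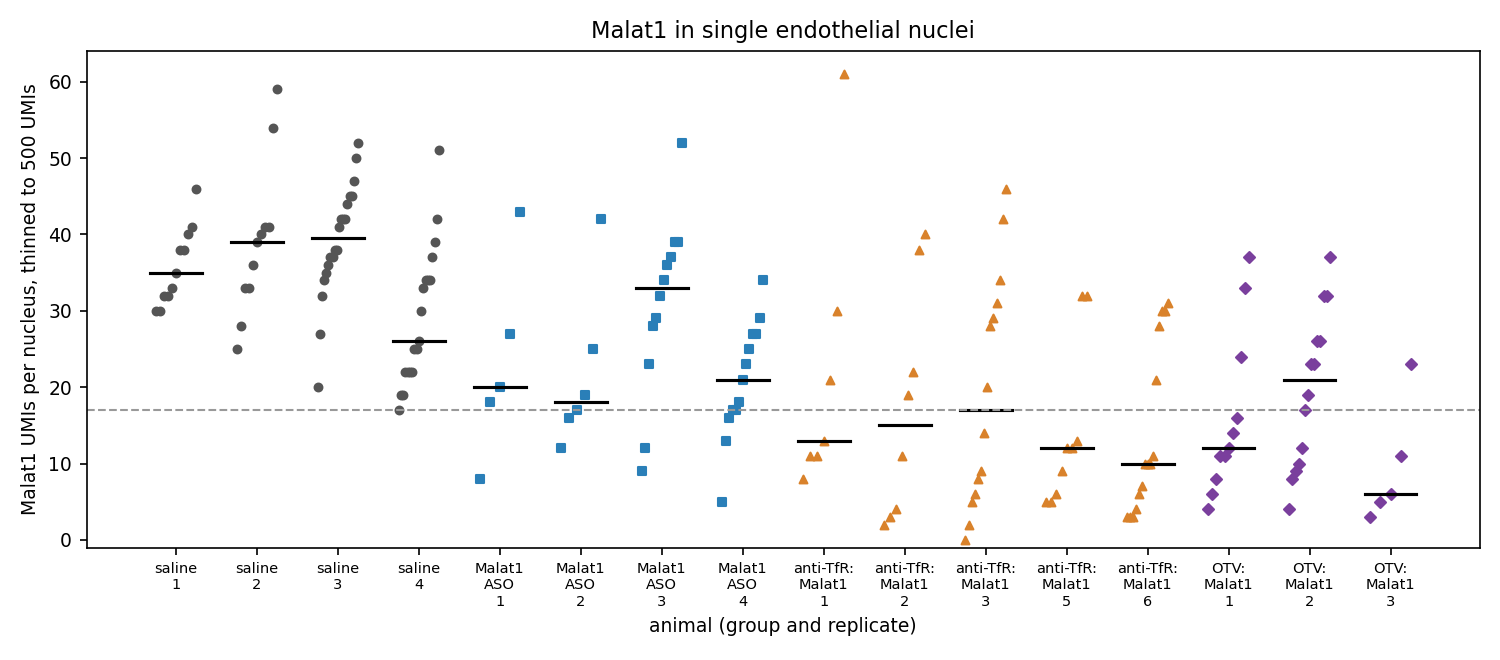
Malat1 UMIs in each endothelial nucleus after thinning to 500 UMIs (vertical axis), by animal; points are nuclei, black bars are animal medians, and the dashed line is the lowest saline nucleus, 17 UMIs. Each conjugate-treated animal shown has nuclei below the line, and all shown but OTV:Malat1 replicate 3, whose highest nucleus holds 23 UMIs, also have nuclei at or above 30. Anti-TfR:Malat1 replicate 4, with 3 nuclei, is not shown.

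Genes of the vessel segments were used to describe which endothelial nuclei were low. Arteries, capillaries and veins of the brain express different endothelial genes, and each nucleus was assigned to the list with the most UMIs if that list had 2 or more. The capillary list, which holds Mfsd2a, Slc7a5, Cxcl12, Spock2, Hmcn1 and Tfrc among its 12 genes, led in 137 nuclei. The venous list, with Vwf, Nr2f2 and Slc38a5 among the 14 of its genes in the table, led in 23, and the arterial list, with Bmx, Gkn3 and Arl15 among its 14 in the table, in 13. In 10 nuclei no list led. This split was made after the spread of the nuclei had been seen and no test was run on it. It includes the 3 nuclei of the animal left out above.

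Low nuclei were counted by the list that led them, with capillary-led nuclei making up 137 of the 183. In anti-TfR:Malat1 31 of 43 capillary-led nuclei (72.1%) lay below every saline nucleus, against 2 of 11 arterial-led or venous-led nuclei (18.2%). Both of these were among its 4 arterial-led nuclei, which had a median of 21 thinned Malat1 UMIs, against 41 in the 3 arterial-led saline nuclei. In OTV:Malat1 the counts were 15 of 22 (68.2%) and 2 of 7 (28.6%). In Malat1 ASO they were 6 of 26 (23.1%) and 2 of 6 (33.3%), the other way round. Its medians went the same way as in the conjugates, with 22 thinned Malat1 UMIs in capillary-led and 29.5 in arterial-led or venous-led nuclei. The 4 venous-led nuclei of Malat1 ASO had a median of 40.5, with Malat1 at 6.59% of their UMIs, against 4.54% in its capillary-led nuclei. The 2 arterial-led ones had a median of 14.5 and 2.99%. Both anti-TfR:Malat1 nuclei that no list led were low. The 7 venous-led nuclei of anti-TfR:Malat1 held 28 to 61 thinned Malat1 UMIs (median 32), against 19 to 41 (median 36) in the 9 venous-led saline nuclei. In OTV:Malat1 the 3 venous-led nuclei held 16 to 37 (median 17), with 1 below every saline nucleus and Malat1 at 4.72% of their UMIs. In the venous-led nuclei of anti-TfR:Malat1 and saline, Malat1 made up 6.77% and 6.64% of the UMIs, whereas in capillary-led nuclei it made up 3.20% in anti-TfR:Malat1 and 7.15% in saline. Within animals, the capillary-led median was lower than the median of arterial-led and venous-led nuclei in 5 of 5 anti-TfR:Malat1 animals, by 19 to 48 UMIs, and in 2 of 2 OTV:Malat1 animals with both kinds, by 1 and 22. These medians rest on few nuclei: the arterial-led or venous-led ones numbered 1, 1, 3, 3 and 3 in the anti-TfR:Malat1 animals, where the difference of 48 rests on 1 nucleus, and 3 and 4 in the OTV:Malat1 animals. The capillary-led median was lower in 2 of 4 Malat1 ASO and 2 of 4 saline animals.

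The lists differ in how well they are counted and in how far they mark endothelial nuclei. The capillary list summed to 6460 CPM in endothelial, 671 in mural and 687 in fibroblast-like nuclei. The venous list summed to 1019, 559 and 702 CPM in the same order, and the arterial list to 2012, 648 and 964 CPM. Whether RNA of other cells led some venous-led or arterial-led nuclei was not tested. In anti-TfR:Malat1 the median depth was 1925 UMIs in capillary-led and 996 UMIs in arterial-led or venous-led nuclei, and the part of depth in this split was not tested beyond the thinning. Arl15 gave 310 of the 598 UMIs of the arterial list, and was at 423 CPM in neuron-labelled nuclei. Without Arl15 the capillary count in anti-TfR:Malat1 was 33 of 45 (73.3%), and its 2 arterial-led nuclei held 28 and 40 thinned Malat1 UMIs.

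**Figure D4:**
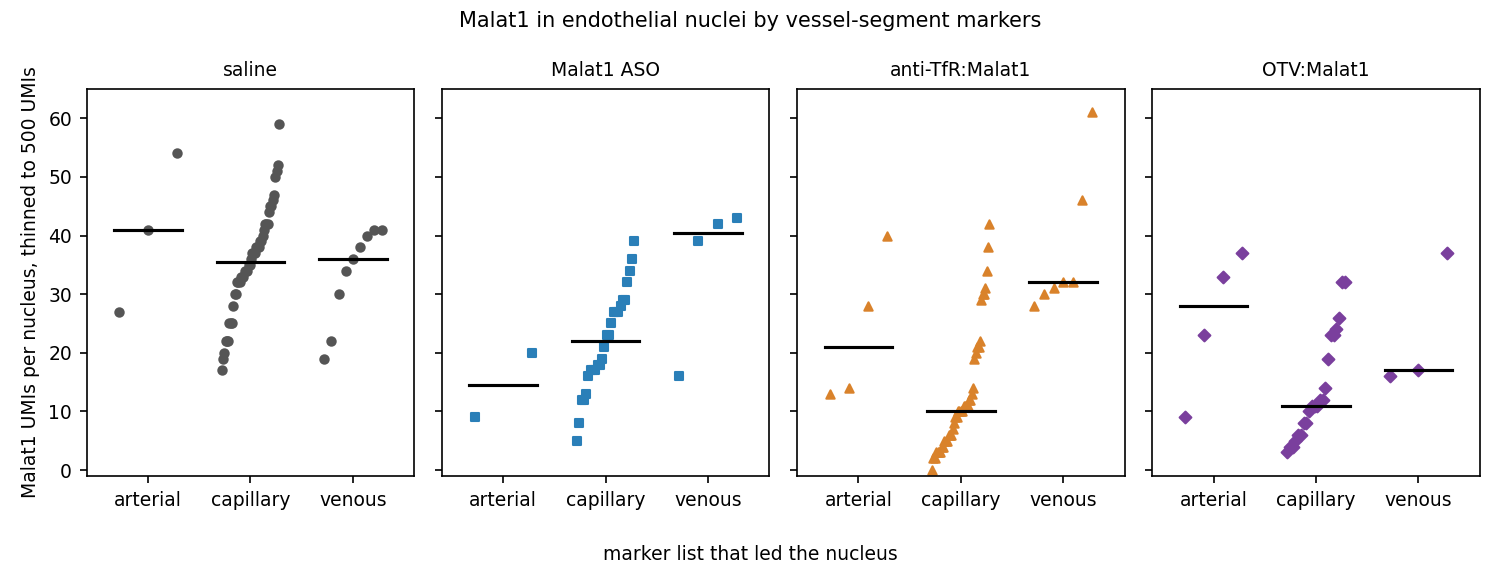
Malat1 UMIs in each endothelial nucleus after thinning to 500 UMIs (vertical axis), by the vessel-segment list that led the nucleus (horizontal axis), in 1 panel per group; points are nuclei and black bars are medians. In anti-TfR:Malat1 the capillary-led nuclei have a median of 10 and the 7 venous-led nuclei all hold 28 or more; the 3 venous-led nuclei of OTV:Malat1 have a median of 17.

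Endothelial Malat1 was then set against other classes of the same animal, which removes any shift that a whole library shares. Endothelial minus mural Malat1 on the log2 scale was -0.84 ± 0.18 (SD, n = 4) in saline, -1.15 ± 0.13 (n = 4) in Malat1 ASO, -1.69 ± 0.32 (n = 5) in anti-TfR:Malat1 and -1.57 ± 0.29 (n = 3) in OTV:Malat1. Every animal of both conjugate groups had a lower difference than every saline animal. The difference of differences against saline was -0.85 for anti-TfR:Malat1 (exact permutation p = 0.0159, the smallest possible with 5 against 4) and -0.73 for OTV:Malat1 (exact permutation p = 0.0571, the smallest possible). Against fibroblast-like nuclei the corresponding values were -0.84 and -0.66, with exact permutation p = 0.0159 and 0.0571. Both mural and fibroblast-like nuclei lie outside the endothelial layer. Neither class was an unchanged reference. Fibroblast-like Malat1 was 9.23% to 11.3% of UMIs in saline, 8.08% to 9.19% in the 5 anti-TfR:Malat1 animals and 6.82% to 8.54% in OTV:Malat1. It was 10.5% in the anti-TfR:Malat1 animal left out. Mural Malat1 was 10.9% to 14.3% in saline and 9.33% to 10.6% in OTV:Malat1, while anti-TfR:Malat1, at 9.31% to 12.5%, overlapped saline.

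The conjugates parted in how endothelial nuclei compared with the brain tissue. Endothelial minus oligodendrocyte Malat1 was -0.51 ± 0.22 (SD, n = 4) in saline, -0.96 ± 0.16 (n = 4) in Malat1 ASO, -1.02 ± 0.31 (n = 5) in anti-TfR:Malat1 and 1.03 ± 0.40 (n = 3) in OTV:Malat1. The sign was thus positive in all 3 OTV:Malat1 animals and negative in every other animal. OTV:Malat1 minus anti-TfR:Malat1 was 2.06 (exact permutation p = 0.0357, the smallest possible with 3 against 5). For astrocytes, whose end feet wrap the vessels, the same contrast was 0.91 (exact permutation p = 0.0357), with every OTV:Malat1 animal above every anti-TfR:Malat1 animal. For microglia and neurons it was 0.45 and 0.42 (exact permutation p = 0.179 and 0.250). Without OTV:Malat1 replicate 2 the microglia value was 0.249. Over the other alternatives the microglia value ran from 0.283 with a replicate block to 0.845 in nuclei of 1000 or more UMIs, and the neuron value from 0.238 to 0.710 under the same settings. Nuclei of 1000 or more UMIs left 2 OTV:Malat1 and 4 anti-TfR:Malat1 animals. These contrasts rest on the other class, since the oligodendrocyte shares were 1.90%, 1.61% and 1.497% in OTV:Malat1 and 5.91% to 8.75% in anti-TfR:Malat1.

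Malat1 ASO also had lower within-animal differences than saline, from -0.28 against fibroblast-like nuclei to -0.55 against microglia, with exact permutation p from 0.0571 to 0.0857. Anti-TfR:Malat1 lay below Malat1 ASO against mural nuclei by -0.54 and against fibroblast-like nuclei by -0.56, both at the smallest possible exact permutation p, 0.0159. Of the 36 tests over 6 classes and 6 pairs, none passed Benjamini-Hochberg adjustment, where the lowest value was 0.103.

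**Figure D5:**
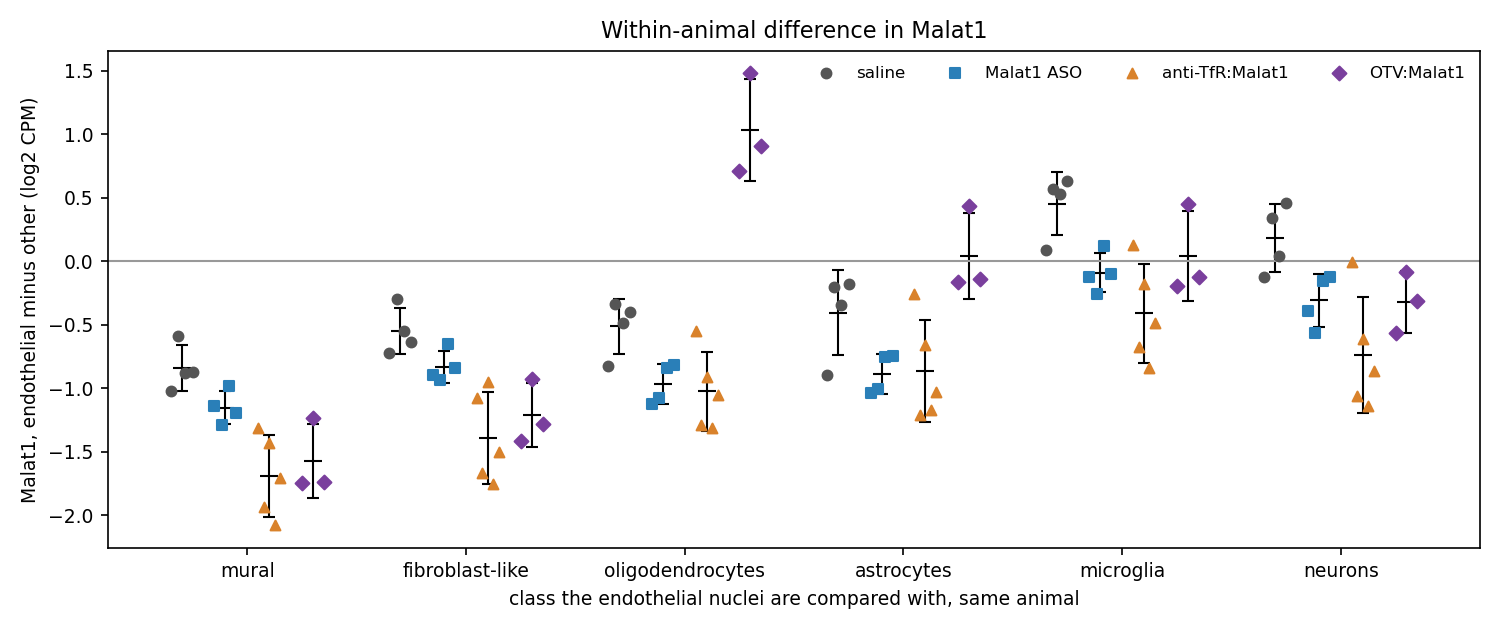
Malat1 in endothelial nuclei minus Malat1 in another class of the same animal (vertical axis, log2 CPM), for 6 other classes (horizontal axis); points are animals, black marks are the group mean with SD, and the line is at 0. The 3 OTV:Malat1 animals are above 0 for oligodendrocytes and the 5 anti-TfR:Malat1 animals are below it.

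Expression beyond Malat1 was compared by edgeR's quasi-likelihood test on the UMIs summed per animal, with 385 genes tested. No gene passed a Benjamini-Hochberg adjusted p of 0.05 in any of the 6 comparisons (0% called in each). In data simulated for anti-TfR:Malat1 against saline this fit called only 12 of 49 genes changed 2-fold, so a missing call does not show that a gene was unchanged. The other comparisons were not simulated. Genes with an unadjusted p under 0.05 numbered 11 (2.86%) for Malat1 ASO, 7 (1.82%) for anti-TfR:Malat1 and 14 (3.64%) for OTV:Malat1 against saline. They numbered 16 (4.16%) for OTV:Malat1 against anti-TfR:Malat1, and 6 (1.56%) and 17 (4.42%) for anti-TfR:Malat1 and OTV:Malat1 against Malat1 ASO. With a minimum count of 3 in edgeR's expression filter, 3021 genes were tested and 0% called in each comparison. Malat1 had the lowest p against saline in anti-TfR:Malat1, with a log2 fold change of -1.12 (SE 0.27, adjusted p = 0.257 by edgeR). DESeq2 called 1 gene there, Malat1, with a log2 fold change of -1.12 and an adjusted p of 0.0272, and 0 in the other 5 comparisons. With the deposited batch as a block edgeR called Malat1 as well (adjusted p = 0.0216).

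The endothelial program showed no call. Of the 30 identity genes outside the rule 17 were tested against saline, with 0 called by edgeR and 0 at an unadjusted p under 0.05. Their median log2 fold change was -0.20 in Malat1 ASO (5 higher, 12 lower), -0.03 in anti-TfR:Malat1 (8 higher, 9 lower) and -0.42 in OTV:Malat1 (6 higher, 11 lower), beside -0.06, -0.01 and 0.07 over all genes tested. In the same OTV:Malat1 comparison the 5 neuronal markers tested had a median of 1.80 and the 3 red blood cell genes tested 2.00, and their part in the identity values was not tested. Of the 26 transporters 11 were tested, with medians of 0.14, 0.09 and -0.04 in the same order and again none at an unadjusted p under 0.05. Slc2a1 was at 1390 ± 140 CPM (SD, n = 4) in saline, 1912 ± 1334 (n = 4) in Malat1 ASO, 1145 ± 492 (n = 5) in anti-TfR:Malat1 and 1002 ± 339 (n = 3) in OTV:Malat1, with overlapping ranges. Abcb1a was at 927 ± 308, 703 ± 339, 1198 ± 367 and 713 ± 140 CPM in the same order of groups. Of the 20 junction genes 6 were tested, and 0 of them were called.

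Signalling and trafficking genes overlapped between groups as well. The 23 genes of Wnt signalling at the barrier summed to 4687 ± 755 CPM (SD, n = 4) in saline, 4698 ± 736 (n = 4) in Malat1 ASO, 5146 ± 1112 (n = 5) in anti-TfR:Malat1 and 3837 ± 617 (n = 3) in OTV:Malat1. Lef1 was at 1324, 928, 1140 and 1407 CPM in the saline animals and at 2182, 1691, 977, 1699 and 1718 CPM in the anti-TfR:Malat1 animals. Of the latter 4 lay above every saline animal, and the edgeR log2 fold change was 0.39 (SE 0.28). The 31 genes of caveolae, clathrin coats and endosomes, the routes by which bound receptors enter the cell, summed to 6985 ± 1023 CPM in saline and 7242 ± 1255 CPM in anti-TfR:Malat1. Genes of the interferon response summed to 1606 ± 369 CPM in saline, 1645 ± 293 CPM with the unconjugated oligonucleotide, 1757 ± 288 CPM with anti-TfR:Malat1 and 2121 ± 577 CPM with OTV:Malat1. Genes of inflammatory activation summed to 1868 ± 717, 1573 ± 586, 1876 ± 519 and 1498 ± 606 CPM in the same order. The ranges of every treated group overlapped that of saline for each of these lists, and none of their tested genes was called.

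Neuronal RNA in endothelial nuclei differed between animals. Of the 8 neuronal markers 5 were tested, and all 5 were higher than in saline in Malat1 ASO (median log2 fold change 1.14) and in OTV:Malat1 (1.80), with 0 called and 1 at an unadjusted p under 0.05 in each by edgeR. In anti-TfR:Malat1 4 were higher and 1 lower (median 0.44). In OTV:Malat1 this direction rests on 1 animal. The neuronal sum was 15921 CPM in OTV:Malat1 replicate 3, the animal with 5 endothelial nuclei, and 1345 and 1178 CPM in the other OTV:Malat1 animals, both below every saline animal. In Malat1 ASO replicate 3 it was 8623 CPM, against 3173 to 3649 CPM in the other 3 animals, which lay above 3 of the 4 saline animals.

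Tfrc, the mouse transferrin receptor gene (chromosome 16, 32608920 to 32632794, plus strand), was counted by 58 UMIs in 42 of the 183 endothelial nuclei. How the counting treated the human knock-in sequence is not given in the sources used here. Its level in endothelial nuclei was 195 CPM, against 28.1 CPM in mural and 8.82 CPM in fibroblast-like nuclei. In saline the animals had 0, 186, 114 and 91.8 CPM from 0 to 5 UMIs each. With Malat1 ASO they had 252, 595, 140 and 445 CPM, with anti-TfR:Malat1 205, 188, 101, 425 and 387 CPM, and with OTV:Malat1 168, 107 and 460 CPM. The lowest conjugate-treated animals lay within the saline range. The edgeR log2 fold changes against saline, with a minimum count of 3 in the expression filter, were 1.10 (SE 0.69) for Malat1 ASO, 1.04 (SE 0.60) for anti-TfR:Malat1 and 0.90 (SE 0.73) for OTV:Malat1, with adjusted p of 0.988 or more. Nuclei with a Tfrc UMI had a median of 9 thinned Malat1 UMIs in anti-TfR:Malat1 (17 nuclei), against 13 in the 39 without one, while their median depth was 2068 and 1162 UMIs. The medians with and without a Tfrc UMI were 18 (11 nuclei) and 27 (25 nuclei) in Malat1 ASO, 9.5 (6) and 16.5 (24) in OTV:Malat1, and 32.5 (8) and 37 (53) in saline. They were lower with a Tfrc UMI in all 4 groups, the largest gap being in the unconjugated group. These medians are a description with no test.

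Iron handling was sparsely counted. Of its 20 listed genes, Fth1, the heavy chain of the iron store ferritin, had the most UMIs (248). The saline animals had 935, 1336, 1330 and 520 CPM of Fth1 and the anti-TfR:Malat1 animals 477, 676, 674, 255 and 558 CPM, so that 3 of the 4 saline animals lay above every anti-TfR:Malat1 animal. The log2 fold change was -0.999 (SE 0.41), with an adjusted p of 1.00 by edgeR. In OTV:Malat1 Fth1 was at 448, 1339 and 828 CPM, which spans the saline range.

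Neat1, the neighbour of Malat1 on chromosome 19 (5824708 to 5845478) and the scaffold RNA of nuclear paraspeckles, was at 390, 260, 380 and 489 CPM in the saline animals. In anti-TfR:Malat1 it was at 136, 37.6, 202, 84.9 and 85.9 CPM, with no overlap with saline. The share of all genes that separate these groups is not given here, for Neat1 or for Lef1 and Fth1 above. The counts behind these were 5 to 16 UMIs per saline animal and 1 to 6 per anti-TfR:Malat1 animal. With a minimum count of 3 in edgeR's expression filter, the log2 fold change against saline was -1.76 (SE 0.57) for anti-TfR:Malat1, with an adjusted p of 0.999. By the same test it was -1.59 (SE 0.69, adjusted p = 0.963) for Malat1 ASO and -0.37 (SE 0.60) for OTV:Malat1. With OTV:Malat1 Neat1 was at 616, 161 and 92.0 CPM, on both sides of saline, and with Malat1 ASO at 0, 397, 46.6 and 267 CPM. Xist, another nuclear RNA, was at 921 ± 220 CPM (SD, n = 4) in saline and 1024 ± 206 CPM (n = 5) in anti-TfR:Malat1.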

How the data were processed

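Single-nucleus 10x libraries of 17 mice were read from 1 deposited matrix. The deposited counts are raw UMI counts over 26131 genes and 284074 nuclei, per the file headers, and the submitters' processing notes name Cell Ranger 6.0.1, Seurat 4 and the build mm10. The authors deposited per-nucleus cell type labels, clusters, doublet calls, batch numbers and label and doublet scores as a fraction from 0 to 1. The reference behind the labels and the meaning of the batches are not given in the sources used here. Gene names (97.6%) were matched to GENCODE M21 for annotation. Another 9 metadata columns were not used.

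UMIs of endothelial nuclei were summed per animal, for animals with 5 or more (the share of nuclei used all 17). Each animal was 1 sample; the labels give no litter or cage, so p-values measure only the spread between these samples. Exact two-sided permutation tests (scipy 1.17.1, smaller tail doubled) compared log2(CPM + 1) of Malat1, its within-animal difference from other classes, shares of nuclei, and shares low in Malat1 after thinning to 500 UMIs. Intervals of a difference hold the shifts that the test did not refuse at 95%. P values were adjusted by Benjamini-Hochberg over 6 pairs of groups (36 tests for class differences). Other classes than vascular ones are the deposited labels as given. The fit over all genes used edgeR 4.0.16 (filterByExpr, TMM, glmQLFit, glmQLFTest, all groups together) in R 4.3.3, with DESeq2 1.42.0 as an alternative. In simulated data for anti-TfR:Malat1 against saline, the edgeR fit called 12 of 49 genes changed 2-fold (24.5%). It called 55 of 60 changed 4-fold (91.7%) and 5 of 306 unchanged (1.63%). With a minimum count of 3 it called 8 of 100 genes changed 2-fold and 65 of 99 changed 4-fold. Comparisons against saline share the saline animals.

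Members, lists and tests were chosen with earlier results of these data known. Named genes were Malat1, Neat1, Tfrc, those past the threshold, up to 6 of highest saline CPM per list, and the 20 of largest ratio to other saline vascular nuclei; Pecam1, Tek, Egfl7 and markers at or near 0 were named as cell type markers, and Abcb1a and other members as part of lists described gene by gene. Alternatives covered depth, doublets, marker sums, normalization, filters, batch and replicate blocks, and each animal left out. Nuclei with haemoglobin UMIs and a minimum count of 3 were considered after seeing the data.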

Additional observations from a re-analysis of the deposited data

Results flagged for a closer look

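In 10 of 110 sets of values (9.09%) 1 animal stood apart from its group by Dixon's criterion, which chance alone marks in about 1 of 20. All were summed CPM of gene lists in endothelial nuclei. Saline replicate 1 had 8648 CPM of junction genes, against 6236 to 6536 in the other saline animals. Saline replicate 2 had 5457 CPM of caveola, clathrin and endosome genes, against 7372 to 7557, and 111 CPM of the fibroblast genes used by the rule, against 0. Among the Malat1 ASO animals, replicate 2 had 2182 CPM of venous genes, against 503 to 653, and replicate 3 had 8623 CPM of neuronal markers, against 3173 to 3649. Among the anti-TfR:Malat1 animals, replicate 5 had 2803 CPM of inflammatory genes, against 1617 to 1691, and replicate 2 had 2180 CPM of oligodendrocyte markers, against 202 to 687. Anti-TfR:Malat1 replicate 6 had 258 CPM of ependymal and choroid plexus markers, against 37.6 to 84.9. Red blood cell genes were at 6851 CPM in saline replicate 4, against at most 304, and at 6571 CPM in anti-TfR:Malat1 replicate 6, against at most 33.7. Groups of 3 animals were not examined in this way, so OTV:Malat1 could not be marked; its replicate 2 had the highest level of red blood cell genes of any animal, 23023 CPM, against 56.0 and 0 in the other OTV:Malat1 animals. Its replicate 1 was likewise highest for oligodendrocyte markers, 3922 CPM against 1178 and 184, and its replicate 3 for astrocyte markers, 3221 CPM against 672 and 1124, and for neuronal markers, 15921 CPM against 1345 and 1178. Their part in the results was not tested beyond leaving out each animal and the nuclei with haemoglobin UMIs.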

How the results depend on the processing

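Every comparison of endothelial Malat1 against saline kept its sign under all alternatives run with the permutation test, from -1.22 to -0.96 for anti-TfR:Malat1 (lowest adjusted p 0.0476, by exact permutation), -1.27 to -0.82 for OTV:Malat1 and -0.67 to -0.44 for Malat1 ASO. With the mean over nuclei, anti-TfR:Malat1 passed against saline (-1.07) and against Malat1 ASO (-0.55), and OTV:Malat1 minus anti-TfR:Malat1 turned to -0.16. The numbers of the animals are not stated to pair them, although saline and Malat1 ASO numbers equal the deposited batch; deviations of same-numbered animals correlated between -0.33 and 0.47 over 409 genes. With a replicate block, OTV:Malat1 minus anti-TfR:Malat1 became -0.18 for Malat1, -0.0251 in the fit over all genes, -0.00138 percentage points for the endothelial share and -0.0143 against mural nuclei. The block also turned anti-TfR:Malat1 minus Malat1 ASO to -0.00661 points for the share and 0.10 against oligodendrocytes, and OTV:Malat1 minus Malat1 ASO to 0.0493 against neurons, and called 1 gene in that pair.

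For the share, vascular nuclei as denominator gave -0.513 points for OTV:Malat1 minus anti-TfR:Malat1. Leaving out doublets gave -0.00577 for anti-TfR:Malat1 and -0.00542 for OTV:Malat1, each minus Malat1 ASO, and batch strata gave -0.000931 and -0.00498. Against neurons OTV:Malat1 minus Malat1 ASO was 0.0859 without doublets, and against astrocytes anti-TfR:Malat1 minus Malat1 ASO was -0.0928 with 10 or more nuclei per animal. Thinning to 1000 UMIs, which kept 2 OTV:Malat1 and 4 anti-TfR:Malat1 animals, turned the low share of OTV:Malat1 minus anti-TfR:Malat1 to -11.2 points. The cause was not tested.

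Genes called became 9, 5 and 4 against saline (Malat1 ASO, anti-TfR:Malat1, OTV:Malat1) with no filter and 14431 genes, 9 for OTV:Malat1 against anti-TfR:Malat1, and 1 and 7 for the conjugates against Malat1 ASO; Malat1 was among those called against saline by edgeR in all 3 groups (-1.17, -1.15 and -1.29, adjusted p = 0.000369, 0.000181 and 0.000533), while the median of all genes was -0.38, -0.03 and -0.15. Between the conjugates Malat1 was then -0.14 and, for anti-TfR:Malat1 against Malat1 ASO, 0.0124. For anti-TfR:Malat1 against saline 1 gene was called with each of DESeq2, batch as a block, doublets left out, and haemoglobin-bearing nuclei left out. Nuclei of 1000 or more UMIs called 1 gene in anti-TfR:Malat1 against Malat1 ASO, and Malat1 was then 0.0821 for Malat1 ASO against saline; 1 Malat1 ASO animal was left, assumed to vary like the rest.

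Leaving out each animal gave ranges that crossed 0 for OTV:Malat1 minus anti-TfR:Malat1 (-0.17 to 0.17 for Malat1, -0.0246 to 0.40 in the fit, -0.00860 to 0.0144 for the share, -0.0493 to 0.21 against mural nuclei). They crossed 0 for OTV:Malat1 minus Malat1 ASO (-0.44 to 0.0795 in the fit, -0.00770 to 0.0153 for the share, -0.0703 to 0.25 against microglia, -0.13 to 0.11 against neurons) and anti-TfR:Malat1 minus Malat1 ASO (-0.00621 to 0.00968 for the share, -0.13 to 0.11 against astrocytes, -0.18 to 0.0129 against oligodendrocytes). Between 3 and 20 nuclei per animal limit all values.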
